A study of Homo sapiens with 4 samples.

Results

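The promoters of 47 DNA repair genes, out of 20162 protein-coding promoters, were examined for new methylation in HEK293 cells that had carried a targeted DNA methyltransferase. The genes were chosen by name for their place in 8 repair pathways, with earlier results of these data known. A promoter reached from 1000 bp before to 1000 bp after the first base of the gene's canonical transcript in GENCODE release 44 lifted to hg19, and it was counted when it overlapped at least 1 bp of a region listed as newly methylated. HEK293 is a human embryonic kidney cell line. MBD-seq, which captures methylated fragments of sheared DNA on the methyl-CpG binding domain of MBD2 and sequences them, had been done in 4 conditions with 1 library each.

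The wild type cells had been transfected with dCas9 carrying 10 SunTag repeats, with the wild type Ab-3A3L effector and with an sgRNA for the ISG15 promoter, and were collected 3 days later. Ab-3A3L is a single-chain antibody that binds the SunTag peptide, fused to DNMT3A and DNMT3L. The other conditions were untreated HEK293 cells and cells that received the K844E or the R887E variant of DNMT3A in Ab-3A3L in place of the wild type. Expression was transient, and the transfected cells had been sorted for all plasmids, so that their libraries come from cells that took up every component. Untreated cells enter here only as the reference of the list of new peaks, and no library other than the wild type was analysed here. With 1 library for a condition there is no replicate error, no test of the condition was possible, and all values below describe this library. An sgRNA for ISG15 has no intended target among the repair genes.

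DNA repair pathways remove different kinds of damage. Nucleotide excision repair cuts out bulky, helix-distorting lesions, base excision repair removes single altered bases, and mismatch repair corrects replication errors. Double-strand breaks are joined directly by end joining or copied from a sister chromatid by homologous recombination, the Fanconi anaemia proteins deal with crosslinks between the strands, and damage kinases signal that a lesion exists. Most genes of these pathways are used in every dividing cell and have CpG island promoters that are normally free of methylation, and for some of them promoter methylation is known from tumours.

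New peaks lay in CpG-dense sequence, and stretches of DNA from them are given first so that the CpGs counted below can be seen. The following were read from GRCh37, the build of hg19, in the direction of transcription, with each CpG in capitals, and leave out all annotated exons. Each is the exon-free stretch of the peak at or nearest to its summit, which was chosen after the values had been seen because much of the upstream sequence lay outside these peaks. XPC had the highest fold among the members and among the nucleotide excision repair genes, FANCC the highest among the Fanconi anaemia genes, and ATR the highest among the damage kinases. PARP1 stands for base excision repair, since the peak at TDG, which was higher, had no sufficiently long stretch free of exons. The XPC stretch, chr3:14219774-14219953 on the minus strand, lies in intron 1 and holds 23 CpGs in 180 bp. The FANCC stretch, chr9:98079546-98079725 on the minus strand, also lies in intron 1 and holds 21 CpGs. The PARP1 stretch, chr1:226595331-226595510 on the minus strand, lies in intron 1 and holds 25 CpGs. The ATR stretch, chr3:142297612-142297791 on the minus strand, lies upstream of the start site and holds 22 CpGs. All 4 stretches hold the summit of their peak.
XPC: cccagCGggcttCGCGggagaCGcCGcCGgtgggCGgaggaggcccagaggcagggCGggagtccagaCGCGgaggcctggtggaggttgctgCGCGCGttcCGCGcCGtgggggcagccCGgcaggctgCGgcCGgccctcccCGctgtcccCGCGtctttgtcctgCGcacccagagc
FANCC: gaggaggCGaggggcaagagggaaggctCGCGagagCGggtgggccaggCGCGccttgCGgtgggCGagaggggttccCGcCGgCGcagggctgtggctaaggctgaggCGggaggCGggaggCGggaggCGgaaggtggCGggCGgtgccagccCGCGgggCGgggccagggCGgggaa
PARP1: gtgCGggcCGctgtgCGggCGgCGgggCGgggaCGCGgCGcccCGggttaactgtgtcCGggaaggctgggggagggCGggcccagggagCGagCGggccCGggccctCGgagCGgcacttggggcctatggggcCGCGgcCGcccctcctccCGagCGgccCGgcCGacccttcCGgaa
ATR: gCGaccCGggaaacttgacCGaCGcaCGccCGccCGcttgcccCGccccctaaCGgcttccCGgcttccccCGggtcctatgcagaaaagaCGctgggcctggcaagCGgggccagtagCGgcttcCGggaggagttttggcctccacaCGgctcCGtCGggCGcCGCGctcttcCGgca

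For contrast, the stretch from the XRCC3 peak, which had the lowest fold of the members, was as dense in CpGs. It lies upstream of the XRCC3 start site at chr14:104182317-104182496 on the minus strand and holds 26 CpGs in 180 bp. ATM and PALB2 had no new peak, although their promoters hold 113 and 112 CpGs. Shown for them is sequence upstream of the start site, ending at -24 bp for ATM and at -12 bp for PALB2, which holds 16 CpGs in 157 bp at ATM (chr11:108093614-108093770, plus strand) and 15 CpGs in 144 bp at PALB2 (chr16:23652643-23652786, minus strand).
XRCC3: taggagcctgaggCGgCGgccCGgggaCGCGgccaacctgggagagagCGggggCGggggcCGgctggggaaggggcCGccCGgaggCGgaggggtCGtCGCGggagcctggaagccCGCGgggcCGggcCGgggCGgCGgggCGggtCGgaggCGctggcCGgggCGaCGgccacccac
ATM: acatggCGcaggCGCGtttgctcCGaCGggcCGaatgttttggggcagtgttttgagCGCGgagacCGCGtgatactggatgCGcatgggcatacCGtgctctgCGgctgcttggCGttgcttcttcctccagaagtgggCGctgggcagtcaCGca
PALB2: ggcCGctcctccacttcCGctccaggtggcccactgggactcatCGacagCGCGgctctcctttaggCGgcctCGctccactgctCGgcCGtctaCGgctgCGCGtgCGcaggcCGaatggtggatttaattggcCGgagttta

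Of the 47 repair promoters, 30 (63.8%) had a new peak, against 41.6% of all coding promoters. Every member promoter overlapped a CpG island, against 71.7% of all coding promoters, and among island promoters 57.5% had a new peak. The repair genes did not have unusually many CpGs, with a median of 95 in the promoter against 96 over all coding promoters. When each member was set beside the other coding promoters of its own CpG class, with 10 classes of equal size, the share for promoters of like CpG number was 49.0%, or 23.03 of 47 promoters. The members, chosen with earlier results of these data known, therefore stood 14.8 percentage points above that share. This surplus did not hold under stricter peak thresholds. With peaks of at least the median fold of the list, 14 members (29.8%) kept a peak against 29.5% at like CpG number, and with peaks of a −log10 q of at least 10, 11 members (23.4%) against 27.5%. The surplus was 8.64 percentage points when promoters were classed by the CpGs within 250 bp of the start site.

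Peaks of high fold and promoters with several peaks were counted as well. A fold of 10 or more was reached at 4 members (8.51%), XPC, FANCC, TDG and ERCC4, against 13.3% of all coding promoters. TDG and ERCC4 lay just inside this limit at 10.04 and 10.02, and PARP1 lay just outside it at 9.93. No member had 2 or more new peaks in its promoter, against 5.22% of all coding promoters. These counts are too small to set the members apart, and no share at like CpG number was taken for them. The median fold of the 30 member promoters with a peak was 7.26 (quartiles 6.12 and 8.86), and that of the 8386 coding promoters with a peak was 8.26 (quartiles 6.21 and 11.1). The fold is the number of fragments at the summit over a background rate, each raised by 1. Compared with the median of their own CpG class, 19 of the 30 member peaks had a lower fold and 11 a higher one.

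**Figure D1:**
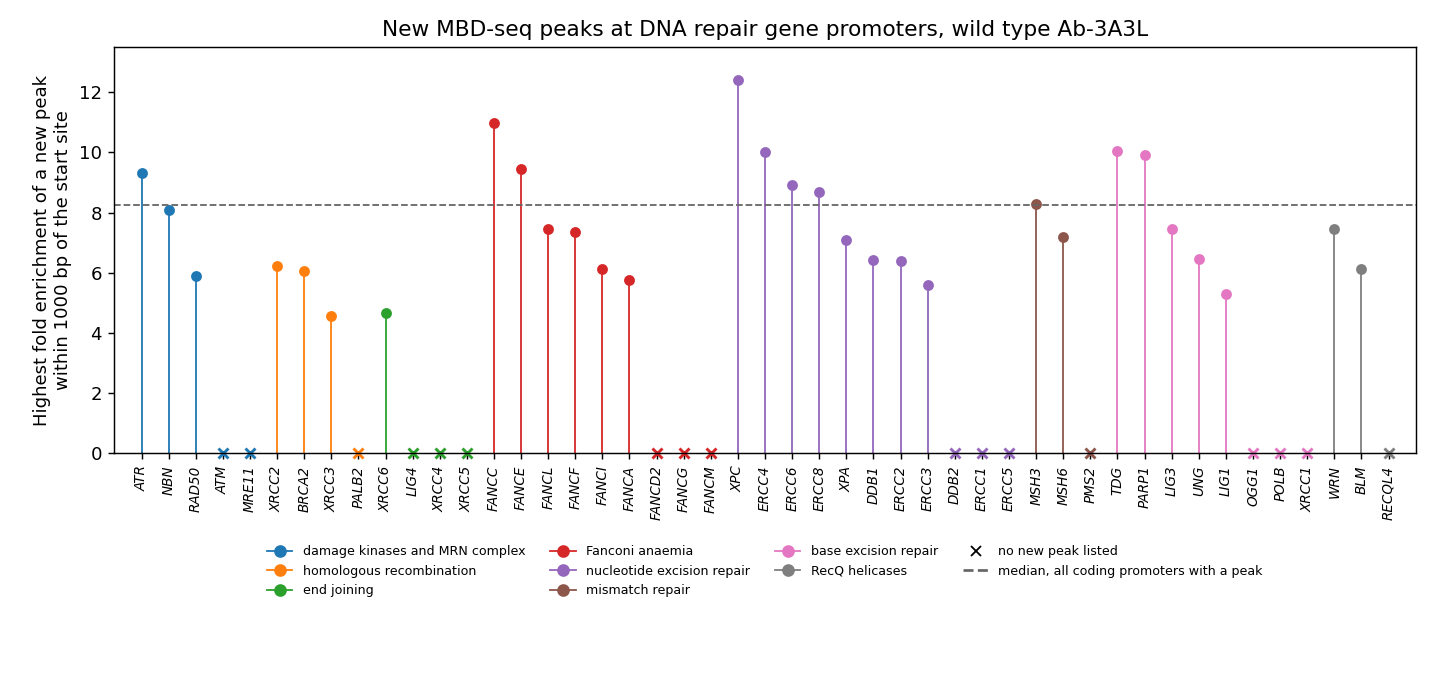
Highest fold enrichment (vertical axis, a ratio) of a new peak within 1000 bp of the start site for each of the 47 genes, coloured by pathway (1 library, wild type). A cross marks a gene with no listed peak and is not a measured value of 0; the dashed line is the median of 8.26 over all coding promoters with a peak, and XPC reaches 12.4.

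In nucleotide excision repair, 8 of 11 promoters had a new peak, and the share at like CpG number was 43.3%. XPC, the protein that first recognises distorted DNA, had the highest fold of all members, 12.4, from 19 fragments (95% exact Poisson interval 11.4 to 29.7) over a rate of 0.611. Its peak, chr3:14219632-14220083, began downstream of the start site and had its summit 237 bp into the gene, in intron 1. The peak of ERCC4, the nuclease that cuts on one side of the lesion, reached 10.02 from 18 fragments and had its summit in coding sequence 193 bp downstream of the start. Both Cockayne syndrome genes, which act when a transcribing polymerase is blocked, had a peak, ERCC6 at 8.92 and ERCC8 at 8.69. A stretch of 234 bp of the ERCC8 promoter has a match of 97.4% identity on chromosome 2. The remaining peaks were lower. They were at XPA with 7.08, at DDB1, a subunit of the ultraviolet damage sensor, with 6.43, and at the TFIIH helicase genes ERCC2 with 6.38 and ERCC3 with 5.59. The ERCC3 peak rested on 8 fragments (3.45 to 15.8), the fewest of any member.

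No peak was listed at DDB2, ERCC1 and ERCC5. DDB2 is the partner of DDB1 in the damage sensor, ERCC1 the partner of ERCC4 in the nuclease, and ERCC5 the nuclease that cuts on the other side of the lesion. The DDB2 promoter held 81 CpGs, that of ERCC1 77 and that of ERCC5 95, and 23.98% of the other promoters of the class of DDB2 and ERCC1 and 40.6% of that of ERCC5 had a peak. For ERCC1 the result depended on the start site. Another annotated ERCC1 start, at -5293 bp from the canonical one, had a peak, chr19:45931826-45932300, with a fold of 11.2 from 23 fragments, and another at -26808 bp had a peak with a fold of 6.38.

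In the Fanconi anaemia pathway 6 of 9 promoters had a new peak, against 51.2% at like CpG number. Most of these proteins form the core complex that attaches ubiquitin to FANCD2 and FANCI. FANCC, a core complex gene, had the widest peak of the members, 999 bp from chr9:98079265 to 98080263, with a fold of 10.97 from 25 fragments (16.2 to 36.9). This peak covered the start site and 106 of the promoter's 149 CpGs. FANCE reached 9.44 from 15 fragments, with the summit 11 bp downstream of the start. FANCF had the most fragments of any member, 27 (17.8 to 39.3), but over the highest background rate, 2.81, so that its fold was 7.35. At FANCA, whose promoter is among the CpG-richest of the members with 194 CpGs, the fold was 5.75 from 20 fragments over a rate of 2.65. FANCL, the ubiquitin ligase of the complex, had a fold of 7.45 and FANCI one of 6.12.

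The Fanconi anaemia genes without a listed peak were FANCD2, FANCG and FANCM. FANCI and FANCD2 form a pair that is modified together, and only the FANCI promoter had a peak. FANCD2 had a peak further inside the gene, in intron 3, with a fold of 7.45, 6545 bp from its start site and outside any CpG island. A further copy of 999 bp of the FANCD2 promoter with 88.6% identity lies elsewhere on chromosome 3. FANCG had 105 CpGs in its promoter and the nearest peak 7179 bp away. FANCM, the translocase that brings the complex to DNA, had 72 CpGs and no peak within 117048 bp. Beyond their promoter peaks, FANCA had a peak in intron 6 with a fold of 6.26 and FANCC one in intron 1 with a fold of 3.45.

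In base excision repair 5 of 8 promoters had a new peak, against 53.1% at like CpG number, and all 5 peaks covered the start site. TDG, the glycosylase that also takes part in active DNA demethylation, had a fold of 10.04 from 16 fragments at chr12:104359634-104359970. PARP1, which senses strand breaks, had 9.93 from 18 fragments at chr1:226595254-226595843. At UNG, the glycosylase that removes uracil, the fold was 6.46 from 10 fragments. Of the ligase genes of the pathway, LIG3 had a fold of 7.45 and LIG1 one of 5.28. The LIG3 peak was 913 bp wide and contained 85.4% of the CpGs of the promoter, the largest share of any member, with 11 fragments at its summit. The genes without a peak were OGG1, the glycosylase for oxidised guanine, with 103 CpGs, the polymerase gene POLB with 82, and XRCC1, the scaffold that binds LIG3, with 89.

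Among the damage kinases and the MRN complex, ATR, NBN and RAD50 had a peak and ATM and MRE11 had none, against a share of 35.5% at like CpG number. ATR, the kinase activated by stalled replication forks, had a fold of 9.31 from 14 fragments (7.65 to 23.5), with the summit 127 bp upstream of the start. ATM, the kinase activated by double-strand breaks, had more CpGs in its promoter than ATR, but the nearest peak lay 101174 bp away. In its CpG class 65.0% of the other promoters had a peak. NBN, RAD50 and MRE11 encode the 3 proteins of the complex that holds and trims broken ends. NBN had a fold of 8.07 from 12 fragments and RAD50 one of 5.87 from 9. The MRE11 promoter had 81 CpGs and its nearest peak was 18568 bp away.

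In homologous recombination 3 of 4 promoters had a peak, all of them of low fold, against 59.7% at like CpG number. BRCA2, which loads the recombinase on single-stranded DNA, had a fold of 6.06 from 14 fragments with its summit 66 bp downstream of the start. XRCC2 and XRCC3 encode relatives of the recombinase that assist it. XRCC2 had 6.21 from 9 fragments. At XRCC3 the fold was 4.57 from 14 fragments over a rate of 2.28, the lowest fold of the members, and the peak, chr14:104182142-104182721, lay wholly upstream of its start. PALB2, the protein that joins BRCA2 to the repair complex, had no peak within 37399 bp, and 65.0% of the other promoters of its class had one.

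End joining was the pathway with the fewest peaks, 1 of 4, against 31.1% at like CpG number. The Ku heterodimer binds broken ends first, and of its genes XRCC6 had a peak and XRCC5 had none. The XRCC6 peak, chr22:42017362-42017760, had a fold of 4.66 from 12 fragments and the lowest −log10 q of the members, 4.47. XRCC6 had 140 CpGs in its promoter and XRCC5 had 70. LIG4 and XRCC4, which together seal the break, had no peak and had 79 and 63 CpGs. XRCC4 had the fewest CpGs of the members and the most distant nearest peak, at 393862 bp. LIG4 had a peak 2673 bp upstream of its canonical start, chr13:108870557-108871193 with a fold of 6.83. This peak covered other annotated LIG4 starts, at -2765 to -2832 bp from the canonical one. With any annotated start allowed, 32 members had a peak, ERCC1 and LIG4 being those gained, against 51.8% at like CpG number.

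In mismatch repair MSH3 and MSH6, alternative partners in the complexes that recognise mismatches, had a peak and PMS2, a subunit of the nuclease that acts after them, had none. These 2 of 3 stood against 67.8% at like CpG number. The fold was 8.28 from 16 fragments at MSH3 and 7.18 from 15 at MSH6, both with the summit upstream of the start. The PMS2 promoter held 126 CpGs and 70.3% of the other promoters of its class had a peak. It has 5 matches elsewhere in the genome, the longest of 1919 bp with 88.6% identity at chr7:66766428-66768374. The part of such copies at ERCC8, FANCD2 and PMS2 in the listing of peaks was not tested. Among the RecQ helicases, which unwind recombination and replication structures, BLM had a fold of 6.12 and WRN one of 7.45, and 2 of 3 with a peak stood against 65.9% at like CpG number. The WRN peak overlapped the promoter by only 84 bp, and WRN was lost when the promoter was narrowed to 500 bp either way. RECQL4 had no peak although its promoter held 203 CpGs and 78.6% of the other promoters of that class had one. Its nearest peak lay 4501 bp away, inside the same CpG island of 946 CpGs that overlaps the promoter.

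The number of pathway members is small and the pathways cannot be ranked from these counts. A second list of 70 further repair genes was used to see how far the shares carried over. It was drawn up by function but with earlier results of these data known, so it is not an independent check. In it 37 promoters (52.9%) had a new peak, against 49.4% at like CpG number, with a median fold of 7.45. In nucleotide excision repair, where 8 of 11 members had a peak, only 3 of 12 further genes did, against 42.6% at like CpG number. For end joining the reverse was seen, with 1 of 4 members and 5 of 6 further genes, the latter against 54.0% at like CpG number. With both lists together 67 of 117 repair promoters (57.3%) had a peak, against 49.2% at like CpG number. The joint shares by pathway ran from 47.8% for nucleotide excision repair, against 42.9% at like CpG number, to 60% for end joining, against 44.9%. Among groups that only the second list held, 6 of 6 translesion polymerase and related genes had a peak, against 69.5%, and 8 of 12 damage checkpoint genes, against 48.3%. The end joining polymerase POLM, with 16.5, had the highest fold of the further genes and PAXX, with 2.48, the lowest, both named here after their values had been seen.

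Over all coding promoters the share with a peak rose with CpG number. Among the members it was higher with 83 CpGs or more than with fewer, and so it was at like CpG number. The classes from 83 CpGs upward held between 2 and 13 members each, too few to show whether the share rose further. The 30 members with a peak had a median of 104.5 CpGs (70 to 206) and the 17 without had a median of 83 (63 to 203), so that the ranges overlapped almost fully. Over all coding promoters the medians were 130 with a peak and 63 without. Members with 83 CpGs or more had a peak in 27 of 36 cases (75%), against 57.1% at like CpG number. Those with 63 to 82 CpGs had one in 3 of 11 cases (27.3%), against 22.4%. This split was not among the planned comparisons, and it lies where the members' share went from 30% to 76.9% between neighbouring classes. The largest gap was in the class of 83 to 96 CpGs, in which 10 of 13 members (76.9%) and 40.6% of the other promoters had a peak. At the top of the scale, with 170 CpGs or more, 3 of 4 members had one against 78.6%.

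The peaks sat close to the start of the gene, mostly on its downstream side. The start site itself was covered at 18 of the 47 members (38.3%), against 26.8% of all coding promoters. Taken over promoters with a peak only, it was covered at 18 of 30 members and at 5396 of 8386 coding promoters. On that basis the share was slightly lower for the members. The summit lay within 250 bp of the start in 19 of 30 member peaks (63.3%), against 45.7% over all coding promoters with a peak, and upstream of it in 8 (26.7%), against 29.4%. The median position of the summit was 104 bp downstream, and 165 bp over all coding promoters with a peak. By the annotation, 8 summits lay upstream, 7 in the 5′ untranslated region, 5 in coding sequence and 10 in an intron. All 30 peaks overlapped a CpG island. The peaks were narrow, with a median width of 365 bp (253 to 999), against 594 bp, and 21 of 30 were narrower than the median of their CpG class. They contained between 6.45% and 85.4% of the CpGs of their promoter, with a median of 36.1%. The density of CpGs inside them, a median of 10.6 per 100 bp, was the same as in peaks at all coding promoters.

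**Figure D2:**
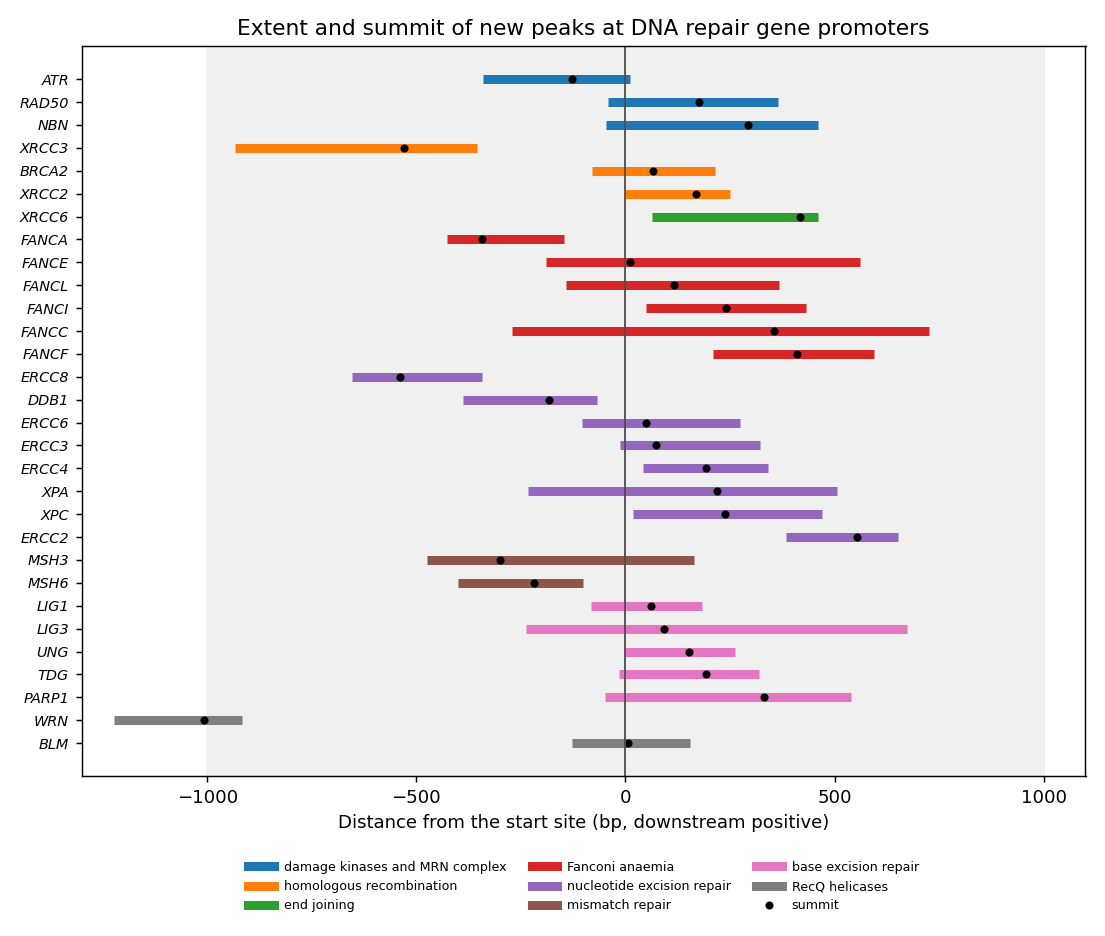
Extent (coloured bar, by pathway) and summit (black point) of the new peak at each of the 30 repair promoters with one, as the distance in bp from the start site (horizontal axis, downstream positive), with the promoter window shaded. Summits run from 1007 bp upstream at WRN to 554 bp downstream at ERCC2, and 18 bars cross the start site.

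The promoters shared with another gene were common among the members. Another coding gene started within 1000 bp at 16 of 47 members (34%), against 14.2% of all coding promoters, and in 15 of the 16 the pair ran head to head. Of these 16 promoters 9 had a new peak (56.25%), while the share over all coding promoters with another start was 48.7%. Of the 31 members without such a neighbour 21 had a peak (67.7%), against 40.4% of all coding promoters without one. All members were island promoters, of which 57.5% had a new peak over all coding genes. The shares by neighbour were not split by island or CpG number. Whether these gaps belong to shared or to unshared promoters was therefore not tested. In a shared promoter a peak cannot be assigned to 1 of the genes, and its place was therefore compared with both starts. Among the pairs described here, the summit was nearer to the repair gene at LIG1, XRCC6, BRCA2 and XPC. It was nearer to the other gene at WRN (PURG), XRCC3 (ZFYVE21), DDB1 (TKFC) and ERCC8 (NDUFAF2). The XRCC3 and DDB1 peaks covered the start of the neighbour and not that of the repair gene, and no peak covered both starts.

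Of the head-to-head pairs without a peak, NPAT starts at -429 bp from ATM, PINLYP at -274 bp from XRCC1, AIMP2 at -223 bp from PMS2 and LRRC14 at -159 bp from RECQL4. DCTN5 starts at -156 bp from PALB2, TMEM167A at -153 bp from XRCC4 and ANKRD49 at -140 bp from MRE11. Distances in the head-to-head pairs with a peak were of the same order, from -123 bp for TKFC at DDB1 to -454 bp for PURG at WRN.

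The members without a peak differed widely in their distance to one. For the 17 promoters the nearest new peak lay between 2673 bp and 393862 bp away, with a median of 19836 bp, in 6 cases at less than 10000 bp and in 3 at more than 100000 bp. Beside those given above, it was 4651 bp away at ERCC1, 9596 bp at DDB2, 19366 bp at XRCC1 and 19836 bp at OGG1. At XRCC5 it was 27131 bp away, at ERCC5 45172 bp, at PMS2 49763 bp and at POLB 53264 bp. On average 40.2% of the other promoters of their CpG classes had a peak. The list holds only regions that passed the peak caller's threshold against its background, so a missing peak gives no methylation level and does not show that a promoter stayed unmethylated. A promoter that was already methylated in untreated cells would not be listed either.

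Counting error was large beside the differences between members. The summit fragments of the 30 peaks ran from 8 to 27 with a median of 13, against 17 over all coding promoters with a peak, and 20 of the 30 had fewer fragments than the median of their CpG class. Of the 435 pairs of member peaks, the 95% exact Poisson intervals of the fragments lay apart in 4, FANCC against ERCC3 and FANCF against RAD50, XRCC2 and ERCC3. The order of the members by fragments is therefore largely not resolved at this depth. No interval was computed for the fold, which also depends on the background rate, so its order was not tested. Background rates ran from the genome-wide 0.611, found at 9 member peaks (30%) and at 34.8% of coding promoters with a peak, up to 2.81 at FANCF. The intervals cover counting error only.

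Short sequence motifs were looked for on both strands in the 250 bp before each start site, as a description of the promoters. Over all 47 members, with or without a motif, 63.8% had a new peak. The Sp motif GGGCGG occurred in 32 members (68.1%), against 58.6% of all coding promoters and 75.03% of those with an island. Of these 32 members 21 had a new peak (65.6%), against 56.9% of all promoters with the motif. The ETS motif CCGGAAG was found in 10 members (21.3%), against 11.8% of all and 15.4% of island promoters. Of the 10, 5 had a peak (50%), against 45.8% of all promoters with it and 63.8% of all members. The E2F motif, TTTGGCGC or TTTCCCGC, was found in 4 (8.51%), against 2.67% and 3.40%. The genes with it were FANCC, LIG1, MSH3 and XPC, and all had a new peak, as did 49.2% of all promoters with the motif. The NRF1 motif GCGCATGC occurred in 5 members (10.6%), against 3.81% and 5.13%, of which all but XRCC5 had a peak, against 54.9% of all promoters with it. The E-box CACGTG occurred at BRCA2, ERCC6, LIG3 and TDG, 8.51% of members against 7.85% of all and 9.155% of island promoters. Each of these 4 genes had a peak, against 48.6% of all promoters with the E-box. With 4 or 5 members for a motif these counts are too small to set a motif apart. The NF-Y motif CCAAT was found in 18 members (38.3%), against 34.2% of all and 33.8% of island promoters. Of the 18, 9 had a peak (50%), against 37.7% of all promoters with it and 63.8% of all members. The TATA motif TATAAA was in no member, against 9.38% of all and 4.91% of island promoters.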

How the data were processed

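MBD-seq of HEK293 cells comprised 4 libraries, 1 per condition. Only the new peaks listed for the wild type were used, and the other libraries were not analysed here. The authors mapped reads to hg19 with Bowtie2, and the submitters' processing notes also name MACS2, with settings not given in the sources used here. The deposited list has 12864 peaks in 10 columns. The authors' score, which equals 10 times the −log10 q rounded down, was left out. The deposited fold is a ratio of fragments at the summit to a background, and −log10 of the p-value and of the q-value were likewise deposited.

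Fragments k and the background rate were recovered from the fold, taken as (k + 1)/(rate + 1), and the Poisson p-value, which were met within 0.000402 on the −log10 scale for all peaks. That the background came from untreated cells is an inference. The library's total depth is not given in the list, and precision is limited by summits with a median of 18 fragments. Start sites came from GENCODE release 44 lifted to hg19, with the longest transcript for 281 of 20162 coding genes without a canonical one. CpG islands were built on GRCh37 with a score of 17 for a CpG and -1 for another base, keeping segments over 200 bp with at least 50% GC and an observed to expected ratio over 0.6. Promoters fell into 10 classes of CpG number, and each member was set beside the other promoters of its class. Copies were searched with minimap2 2.31. RefSeq promoter sequences on another build were not used.

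The members and lists were chosen with earlier results of these data known. Values were to be given in full for members without a peak, for the 5 highest and 5 lowest folds, and for promoters with another coding start. No p-value was computed, since 1 library per condition allows no test. Alternative settings changed the promoter width, the start sites, the overlap, the peak threshold, the islands and the CpG classes. The steps were tested on simulated data. The number of fragments was right in 2000 of 2000 simulated peaks and 98 of 100 planted islands were found. The simulated peaks were made with the formula used for the recovery, and the islands were planted in sequence without other CpGs. These tests therefore check the code and not the data. Scripts ran in Python 3.11.15 with scipy 1.17.1, numpy 2.4.6, numba 0.67.0, pandas 2.3.3 and, for plots, matplotlib 3.10.9. The neighbour of 1 shared promoter is not reported here.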

Additional observations from a re-analysis of the deposited data

How the results depend on the processing

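The number of members with a new peak, 30, fell to 14 with peaks of at least the median fold of the list and to 11 with a −log10 q of at least 10, and those with the start site covered fell from 18 to 10 and 7. The share of all coding promoters with a peak, 41.6%, was 25.6% and 24.6% under these thresholds, 39.8% with 500 bp and 42.7% with 2000 bp on either side, 40.5% with the summit inside the promoter, 45.0% with any annotated start and 57.5% with island promoters only. The difference between the members and promoters of like CpG number, 14.8 percentage points, reversed to -4.08 with a −log10 q of at least 10 and was 0.303 with peaks of at least the median fold. Over the 11 alternatives it ran from -4.08 to 16.3. Of the 39 values under alternatives 1 reversed, 11 moved by more than the limit for their kind, and the other 27 kept their direction, among them the difference of 0.303. The median fold moved by less than the quartile range under each alternative. The list keeps no regions below its threshold, so more permissive settings could not be tried. No paired analysis was possible because only 1 library stands for each condition. Depth limits the comparison of single members, since most fragment intervals overlap.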
